A study of Mus musculus with 53 samples.

Results

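Neurotensin and its receptors were followed as 4 genes of the 53379 counted in the laser-captured paraventricular nucleus (PVN) and arcuate nucleus (ARC) of *Nnat* mutant mice: the peptide precursor *Nts*, the receptors *Ntsr1* and *Ntsr2*, and the sorting receptor *Sort1*. They were chosen by symbol, as the ligand and the receptors of the neurotensin system, and each symbol matched 1 Ensembl identifier. Each library held RNA cut by laser from cresyl violet-stained sections of 1 nucleus of 1 mouse, and 49 of the 53 labelled libraries were used. The age given is 13 to 14 weeks, which the study's laser-capture methods state for male mice without naming the females. The mice were C57BL/6 littermates, either Nnat+/+ or Nnat+/-p. The Nnat+/-p mice carry a null allele with a lacZ cassette from the father, in every cell and from conception, and *Nnat* is expressed from the paternal copy only. Chow-fed Nnat+/-p mice were divided by labelled weight into non-obese mice (under 35 g in males, under 25 g in females) and obese mice (over 37 g in males, over 30 g in females). The used libraries were, for the chow-fed male PVN, 3 of Nnat+/+ mice and 3 and 4 of the non-obese and obese Nnat+/-p classes, and for the male PVN on a 45% high fat diet (HFD), 6 Nnat+/+ and 3 Nnat+/-p. The chow-fed female PVN gave 4 libraries of Nnat+/+ mice and 3 of each Nnat+/-p class. The chow-fed male ARC gave 2, 4 and 4 libraries of the same classes, and the HFD-fed male ARC gave 6 Nnat+/+ and 4 Nnat+/-p libraries. Libraries are named here by the sample number of their label.

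Neurotensin is a short peptide that neurons store and release, and it is cut out of a longer precursor together with a related peptide, neuromedin N. Prohormone convertases cut the precursor at pairs of basic residues. Given into the brain, neurotensin lowers food intake, and the lateral hypothalamus is known for neurons that make it. The receptor encoded by *Ntsr1* is a Gq-coupled receptor of neurons, the receptor encoded by *Ntsr2* is found largely on astrocytes, and *Sort1* encodes sortilin, a VPS10-domain protein that binds neurotensin and moves cargo between the Golgi, the cell surface and lysosomes.

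The reads counted on *Nts* come from a short gene, and the part that encodes the peptides lies in its last exon. *Nts* (ENSMUSG00000019890) occupies bases 102481756 to 102490486 of chromosome 10 in GRCm38, minus strand, and has 1 annotated transcript of 1248 bases, whose reading frame of 169 codons holds 4 pairs of adjacent Lys and Arg codons. The stretches between pairs 2 and 3 and between pairs 3 and 4 are shown because they encode the ligands whose precursor was measured. Both are read 5′ to 3′ on the coding strand of exon 4 of 4, and capitals mark the Lys-Arg codon pairs. The stretch at chr10:102482394-102482423 holds the 6 codons of neuromedin N, and the stretch at chr10:102482349-102482399 holds the 13 codons of neurotensin.
Neuromedin N: AAGAGAaaaatcccttatattctgAAAAGG
Neurotensin: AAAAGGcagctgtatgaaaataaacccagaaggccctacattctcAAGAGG

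The receptor genes lie on other chromosomes. *Ntsr1* (ENSMUSG00000027568, 2 transcripts) runs from 180499976 to 180544980 on the plus strand of chromosome 2, the chromosome that also carries *Nnat*, 22.9 Mb away. *Ntsr2* (ENSMUSG00000020591, 5 transcripts) runs from 16653382 to 16660227 on the plus strand of chromosome 12. *Sort1* (ENSMUSG00000068747, 3 transcripts) runs from 108284082 to 108361511 on the plus strand of chromosome 3, where an antisense gene, *Gm12523*, overlaps its 5′ end and an unclassified gene, *Gm43099*, lies on its own strand. The strand setting of the counting is not given in the sources used here, so reads of *Sort1* and *Gm12523* may not have been told apart.

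Levels are given as CPM, the counts of a gene scaled to a fixed library total after edgeR's TMM normalization over all 49 libraries. Total counts were 1479953 to 30228973 per library. *Nnat* checked the genotypes: its level was 270 to 572 CPM in every Nnat+/+ library and 0.324 to 13.6 CPM in every Nnat+/-p library. The PVN was checked with 6 markers of its neurons (*Avp*, *Oxt*, *Sim1*, *Crh*, *Trh*, *Otp*), whose summed level was 569 to 3690 CPM in 27 of the 29 PVN libraries. It was 32.4 CPM in library 15 (chow-fed Nnat+/+) and 164 CPM in library 24 (HFD-fed Nnat+/+), and 21.7 to 153 CPM in the 20 ARC libraries. Library 15 also had 173 CPM of 6 ARC neuron markers, which summed to 3.89 to 35.9 CPM in the 27 PVN libraries and to 27.7 to 703 CPM in the ARC. The 27.7 CPM was that of ARC library 43 (non-obese chow-fed Nnat+/-p) and lies within the range of the 27 PVN libraries. Library 43 also had 5.34 CPM of ventromedial and 221 CPM of lateral hypothalamic markers. Library 35, which shares its labelled genotype, diet and weight with library 15 but is labelled as ARC, had 921 CPM of PVN neuron markers and 40.5 CPM of ARC markers on a low total, and was left out. The labels were kept, so the values of library 15 stand under PVN although its markers go against that label. Each table was a separate sequencing pool, so nucleus and pool, and sex and pool, cannot be told apart. In tissue cut by laser, fewer cells of a type and less RNA per cell cannot be told apart either.

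The members differed by more than an order of magnitude in level. Per kb of exon, the order of the medians over the 19 male PVN libraries was *Ntsr2* at 22.9 CPM per kb, *Sort1* at 8.09, *Ntsr1* at 0.72 and *Nts* at 0.451. The female PVN had the same order over its 10 libraries, with medians of 21.0, 10.1, 0.564 and 0.227 CPM per kb. In the 20 ARC libraries *Nts* stood above *Ntsr1*, with medians of 4.51 and 1.56 CPM per kb, below *Ntsr2* at 31.2 and *Sort1* at 9.52. Every one of the 49 libraries held more *Ntsr2* than *Ntsr1* per kb, by a median ratio of 26.9 over the 46 libraries with an *Ntsr1* count, and more *Sort1* than *Ntsr1*, by a median ratio of 9.09. *Ntsr2* exceeded *Sort1* per kb in 48 of 49 libraries, with a median ratio of 2.62. The length used was that of the protein-coding transcripts, 1626 bases for *Ntsr2*. Over the exons of all its annotated transcripts, 3120 bases, the *Ntsr2* to *Ntsr1* ratio was 14.0, and *Ntsr2* exceeded *Sort1* in 45 of 49 libraries.

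**Figure D1:**
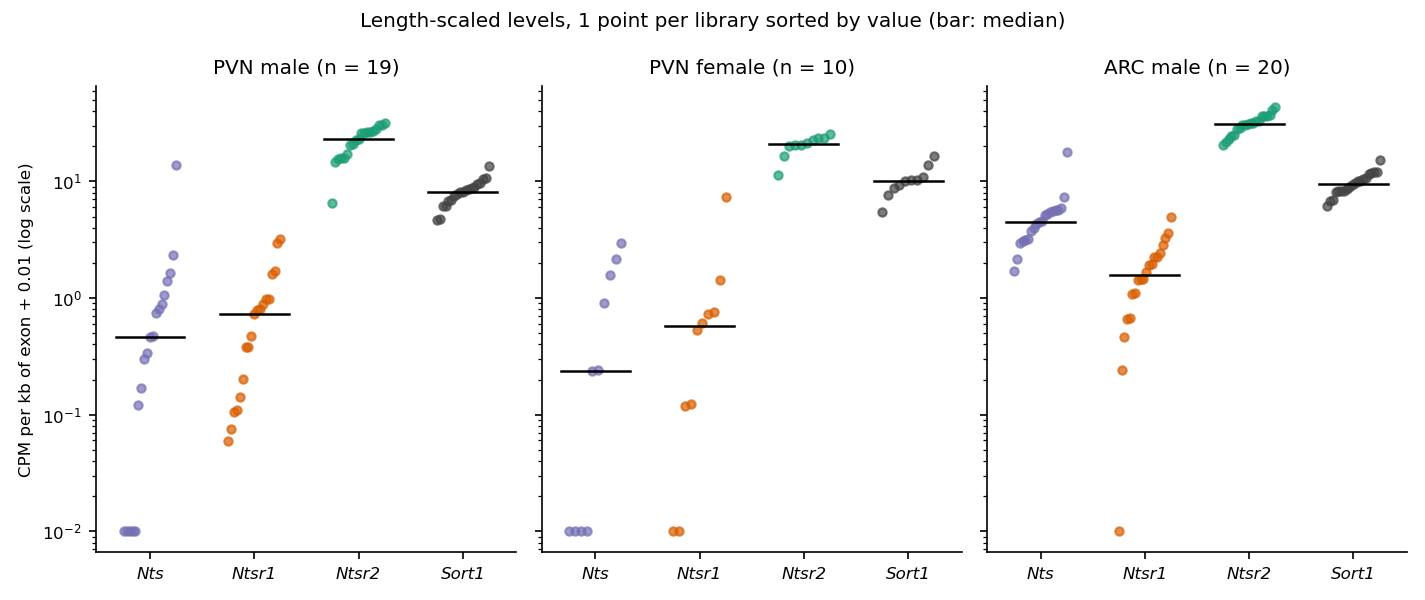
Levels per kb of exon of *Nts*, *Ntsr1*, *Ntsr2* and *Sort1* in the male PVN (19 libraries), female PVN (10) and male ARC (20); each point is a library, sorted by value within a gene, bars are medians, and the log axis adds 0.01 so that a value of 0 sits at 0.01. *Ntsr2* and *Sort1* form tight bands in all 3 panels, and *Nts* and *Ntsr1* spread widely, with *Nts* higher in the ARC panel.

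Depth set how well each gene could be read. *Ntsr2* had at least 55 counts and *Sort1* at least 93 in every library. *Ntsr1* had under 10 counts in 8 of 19 male PVN libraries, 4 of 10 female PVN libraries and 3 of 20 ARC libraries. *Nts* had under 10 counts in 17 of 19 male PVN libraries, 5 of 10 female PVN libraries and 3 of 20 ARC libraries. The spread between mice of a group followed the same division. The median within-group SD of log2(CPM + 0.5) was 0.278 for *Ntsr2* and 0.268 for *Sort1*, against 0.944 for *Ntsr1* and 0.839 for *Nts*.

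The ligand was low in the PVN and present in every ARC library. In the chow-fed male PVN the *Nts* level was 0, 0.197 and 2.02 CPM in Nnat+/+ mice, 1.31, 2.90 and 0.563 CPM in non-obese Nnat+/-p mice, and 1.75, 0, 0 and 0 CPM in obese Nnat+/-p mice. These values stand on 0 to 12 counts, and the zeros of the 3 obese libraries allow levels of up to 0.518, 0.868 and 0.760 CPM, the level of 3 counts in each. On HFD the 6 Nnat+/+ libraries ran from 0 through a median of 0.782 to 17.4 CPM, and the 3 Nnat+/-p libraries had 0.140, 0.405 and 0.908 CPM. The highest value is that of library 24, with 100 counts, and the other 5 Nnat+/+ libraries had at most 1.10 CPM.

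In the female PVN *Nts* was at 3.66, 0, 0.281 and 1.11 CPM in Nnat+/+ mice, 0.286, 0 and 0 CPM in non-obese Nnat+/-p mice, and 2.69, 0 and 1.95 CPM in obese Nnat+/-p mice. The groups overlapped in every pairing. The deeper female libraries make some of these values firmer, such as 117 counts behind 3.66 CPM and 53 behind 1.95 CPM.

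In the ARC the *Nts* level was 6.49 and 2.67 CPM in the chow-fed Nnat+/+ libraries, 6.45, 5.59, 7.12 and 22.2 CPM in non-obese Nnat+/-p and 4.64, 3.95, 6.87 and 9.21 CPM in obese Nnat+/-p libraries. On HFD it ran from 2.10 through 5.15 to 7.39 CPM in the 6 Nnat+/+ libraries and was 3.67, 6.93, 7.04 and 3.85 CPM in the Nnat+/-p libraries. All ARC groups overlapped. Ordered by mean, the 5 ARC groups took the first 5 places of 13 and the 8 PVN groups the rest, from 10.3 ± 7.92 CPM (SD, n = 4) in the non-obese chow-fed ARC to 0.0955 ± 0.165 CPM (SD, n = 3) in the non-obese female PVN. No neighbours in that order differed by more than the larger of their SDs.

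In the ARC and in the male PVN the library with the most *Nts* was also that with the most RNA of lateral hypothalamic markers. *Hcrt* and *Pmch*, which encode the orexin and melanin-concentrating hormone precursors and mark lateral hypothalamic neurons, summed to 221 CPM in ARC library 43, the highest of the 20 ARC libraries, and this library also had the highest *Nts* level, 22.2 CPM. Library 24 had the highest sum of the 19 male PVN libraries, 34.8 CPM, and the highest *Nts* level. Library 15 came second in the sum, with 21.8 CPM, and after libraries 24 and 19 in *Nts*. Other libraries went the other way. Male PVN libraries 19, 16 and 18, at ranks 2, 4 and 5 of 19 in *Nts*, had 0 CPM of the markers. ARC library 42, at rank 2 of 20 in *Nts* with 9.21 CPM, had rank 14 in the sum with 9.92 CPM. The 4 ARC libraries in which the 2 markers summed to under 3 CPM still had 2.10 to 7.04 CPM of *Nts*, above 25 of the 29 PVN libraries. In the female PVN the markers were at 0 in 7 of 10 libraries, among them the library with 3.66 CPM of *Nts*. What part these neurons had in the *Nts* values was not tested further.

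**Figure D2:**
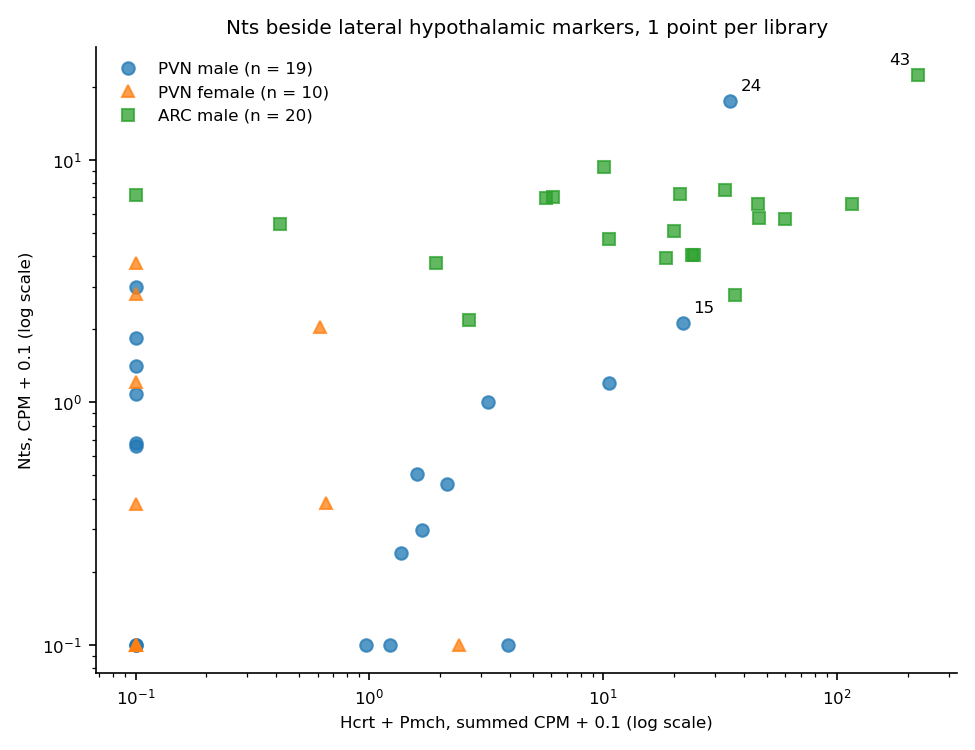
*Nts* level against the summed level of the lateral hypothalamic markers *Hcrt* and *Pmch*, both as CPM + 0.1 on log axes, with 1 point per library (circles, male PVN; triangles, female PVN; squares, male ARC). Libraries 43 and 24 stand apart at the upper right with 22.2 and 17.4 CPM of *Nts*, and ARC libraries with few marker counts keep *Nts* levels of 2.10 to 7.04 CPM.

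*Ntsr1*, the neuronal receptor, was the member with the widest spread. In the chow-fed male PVN its level was 11.5, 0.393 and 12.4 CPM in Nnat+/+ mice (51, 2 and 74 counts). It was 0.749, 1.45 and 0.376 CPM in non-obese Nnat+/-p mice and 0.195, 0.518, 1.45 and 0.253 CPM in obese Nnat+/-p mice, with 1 to 5 counts each. A pair of Nnat+/+ libraries, 13 and 15, stood above all 7 Nnat+/-p libraries and library 14 lay among them, so the groups overlapped. Library 13 had 1410 CPM of PVN neuron markers, against 32.4 CPM in library 15.

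On HFD the 6 Nnat+/+ PVN libraries had 2.82 to 6.61 CPM of *Ntsr1*, with a median of 3.61 CPM, and the Nnat+/-p libraries had 1.82, 3.78 and 3.11 CPM. The ranges overlapped. The lowest HFD-fed Nnat+/-p value, 1.82 CPM, is above the highest of the 7 chow-fed Nnat+/-p libraries, 1.45 CPM, but those stand on 1 to 5 counts each. The diets were not tested within Nnat+/-p mice, and the share of all genes with such a gap was not computed.

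In the female PVN the *Ntsr1* level was 2.06, 0, 0 and 2.82 CPM in Nnat+/+ mice, 2.96, 28.8 and 5.55 CPM in non-obese Nnat+/-p mice, and 0.425, 0.441 and 2.35 CPM in obese Nnat+/-p mice. The 2 zeros allow levels of up to 0.410 and 0.281 CPM, the level of 3 counts in those libraries. Here the 3 non-obese Nnat+/-p libraries lay above all 4 Nnat+/+ and all 3 obese libraries, by a margin of 2.96 against 2.82 CPM at the nearest. Groups did not overlap for 3.98% of the genes tested against Nnat+/+ mice and for 8.23% against obese mice. Library 10, with 28.8 CPM and 207 counts, had the lowest summed neuron markers of the 10 libraries, 562 CPM.

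In the ARC *Ntsr1* was at 11.1 and 4.16 CPM in chow-fed Nnat+/+ libraries, 1.78, 19.3, 7.42 and 14.1 CPM in non-obese Nnat+/-p and 8.76, 12.9, 4.32 and 2.60 CPM in obese Nnat+/-p libraries. The 6 HFD-fed Nnat+/+ libraries had 0.904 to 9.48 CPM, and the Nnat+/-p libraries had 0, 5.54, 6.52 and 7.70 CPM. The zero, in library 50, allows a level of up to 0.917 CPM. All of these groups overlapped. Ordered by mean, *Ntsr1* ran from 12.4 ± 14.2 CPM (SD, n = 3) in the non-obese female PVN to 0.603 ± 0.579 CPM (SD, n = 4) in the obese male PVN, and 11 of 12 neighbouring means differed by less than the larger SD.

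**Figure D3:**
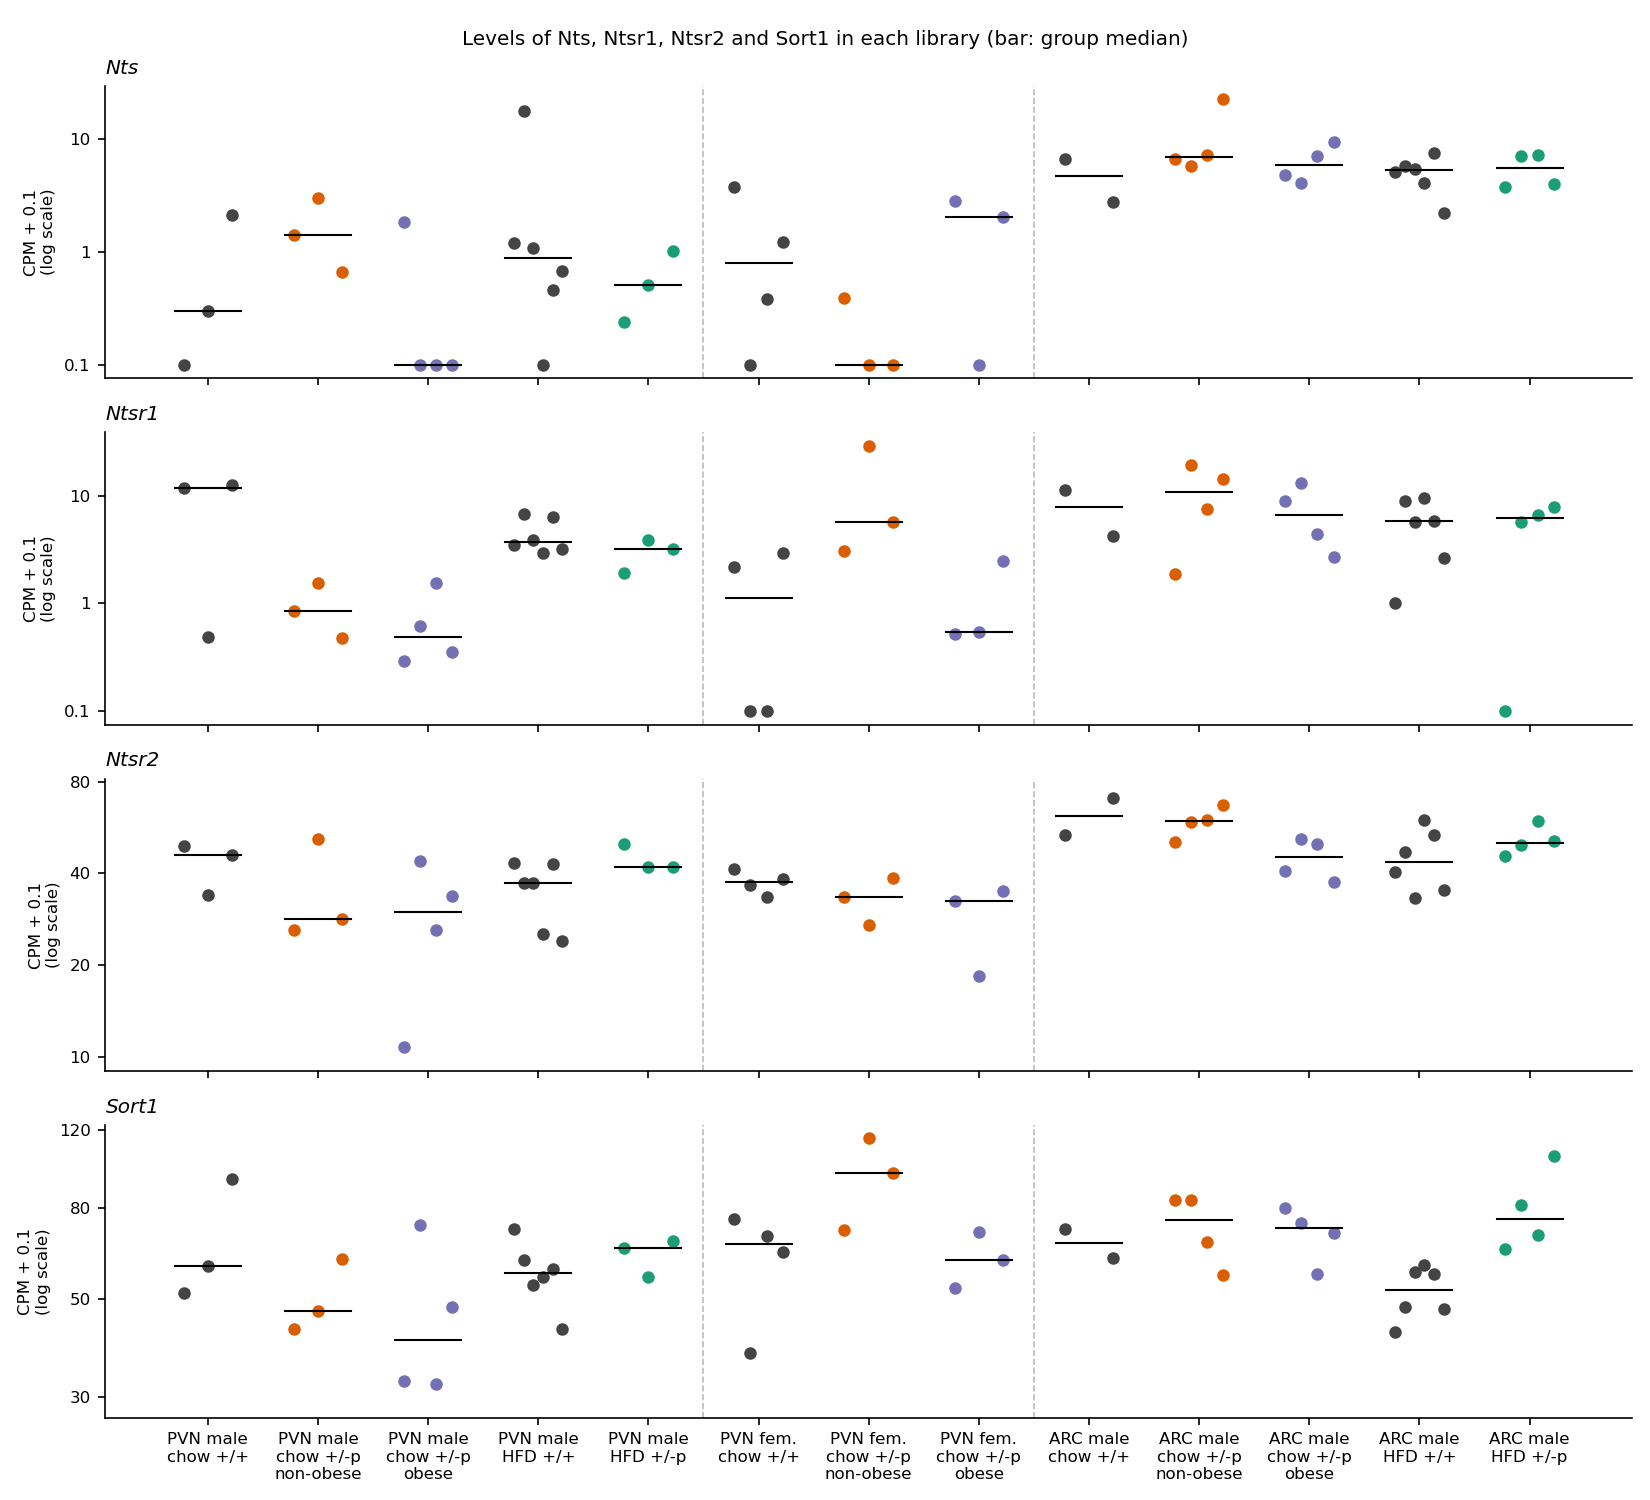
Level of each member (CPM + 0.1, log axis) in every used library, by group, with group medians as bars; dark points are Nnat+/+, orange non-obese, purple obese and green HFD-fed Nnat+/-p, and dashed lines divide male PVN, female PVN and male ARC. *Nts* points of the ARC lie at 2.10 CPM or above, *Ntsr1* spreads from 0 to 28.8 CPM, and *Ntsr2* and *Sort1* stay between 10.7 and 70.4 and between 32.1 and 115 CPM.

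*Ntsr2*, the receptor of astrocytes, varied less between the mice of a group than *Ntsr1* did. Its group means ran from 61.8 ± 12.2 CPM (SD, n = 2) in the chow-fed Nnat+/+ ARC to 28.5 ± 8.93 CPM (SD, n = 3) in the obese female PVN, and 11 of 12 neighbouring means differed by less than the larger SD. The 5 ARC groups took the first 5 places. In the chow-fed male PVN the values were 49.0, 34.0 and 45.9 CPM in Nnat+/+, 26.0, 51.8 and 28.2 CPM in non-obese and 10.7, 43.8, 26.0 and 33.7 CPM in obese Nnat+/-p libraries. The lowest of all 49 values, 10.7 CPM on 55 counts, was that of obese library 16, whose 8 astrocyte markers summed to 1750 CPM, within the PVN range of 1310 to 2690 CPM.

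In the chow-fed ARC the *Ntsr2* level was 53.2 and 70.4 CPM in Nnat+/+, 50.5, 59.0, 59.8 and 67.2 CPM in non-obese Nnat+/-p and 40.7, 52.0, 49.9 and 37.3 CPM in obese Nnat+/-p libraries. The 4 obese libraries lay below the 2 Nnat+/+ libraries. The groups of 12.6% of the 14658 genes tested in that comparison did not overlap, so a gap of this kind between 4 and 2 libraries was common. Before TMM scaling these *Ntsr2* groups overlapped, with 46.71 CPM in obese library 37 and 46.27 CPM in Nnat+/+ library 33. On HFD the ARC values were 33.2 to 59.7 CPM in Nnat+/+ and 45.5, 49.4, 59.2 and 51.1 CPM in Nnat+/-p libraries, which overlapped.

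*Sort1*, the sorting receptor, had group means from 94.1 ± 21.9 CPM (SD, n = 3) in the non-obese female PVN to 46.4 ± 19.3 CPM (SD, n = 4) in the obese male PVN, with all 12 neighbouring differences within the larger SD. The chow-fed male PVN had 51.3, 59.0 and 93.0 CPM in Nnat+/+, 42.7, 46.7 and 61.2 CPM in non-obese and 32.5, 73.2, 32.1 and 47.9 CPM in obese Nnat+/-p libraries, which overlapped. Library 15 again held the highest value of this set. In the female PVN *Sort1* was at 75.5, 37.7, 69.2 and 63.7 CPM in Nnat+/+, 71.3, 115 and 95.9 CPM in non-obese and 52.7, 70.7 and 61.1 CPM in obese Nnat+/-p libraries. The non-obese libraries lay above the obese ones, at 71.3 against 70.7 CPM at the nearest, and overlapped the Nnat+/+ libraries. Obese and non-obese groups did not overlap for 8.23% of the genes tested.

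After TMM scaling, the *Sort1* levels of the genotypes did not overlap in the ARC on HFD. The Nnat+/-p libraries had 64.5, 81.3, 69.4 and 105 CPM, and the 6 Nnat+/+ libraries ran from 42.0 through a median of 52.3 to 59.5 CPM. No Nnat+/+ library reached the lowest Nnat+/-p library, and the groups of 1.16% of the 15753 genes tested did not overlap. Before TMM scaling the *Sort1* groups overlapped, with 49.35 CPM in Nnat+/-p library 50 and 50.78 CPM in Nnat+/+ library 46. The summed neuron markers were 1020 to 1280 CPM in the Nnat+/-p and 623 to 1130 CPM in the Nnat+/+ libraries, and the summed oligodendrocyte markers were 557 to 841 and 272 to 685 CPM; their part in the *Sort1* values was not tested. Chow-fed ARC libraries of Nnat+/+ mice had 71.8 and 61.5 CPM, above all 6 HFD-fed Nnat+/+ libraries, in a comparison in which 13.8% of genes tested had groups that did not overlap.

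The PVN and ARC of the same mouse gave the clearest differences. In 15 male mice a PVN and an ARC library could be matched by genotype, diet and labelled weight: 2 Nnat+/+ and 6 Nnat+/-p mice on chow, and 5 Nnat+/+ and 2 Nnat+/-p mice on HFD. Libraries 15 and 24 are in no pair, and library 43 is paired with PVN library 22. With the mouse as a block, edgeR's quasi-likelihood test called 42.1% of 12421 genes different between the nuclei at an adjusted p under 0.25, 21.5% of all tested higher and 20.6% lower in the ARC, and called all 4 members higher in the ARC. With so many genes called, the count of 4 is read for its sizes and orders rather than as a result about the system.

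*Nts* was higher in the ARC in 15 of 15 mice, with a median of 0.36 CPM in the PVN and 5.67 CPM in the ARC. The fitted difference was a log2 fold change of 3.73 ± 0.505 (SE), or 13.2-fold, with an adjusted p of 2.33e-06 by edgeR. The PVN value was 0 CPM in some mice, so the fold rests on few counts. *Ntsr1* was higher in the ARC in 11 of 15 mice, with medians of 1.82 and 5.72 CPM, a log2 fold change of 1.53 ± 0.497 (SE) and an adjusted p of 0.0259 by edgeR.

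The 4 mice in which *Ntsr1* was not higher in the ARC were not the chow-fed Nnat+/-p mice. All 6 of those had more in the ARC, with 0.194 to 1.45 CPM in the PVN, on 1 to 5 counts each, and 1.78 to 14.1 CPM in the ARC. This was not particular to *Ntsr1*: in these 6 mice *Nts* and *Ntsr2* were also higher in the ARC in 6 of 6, and *Sort1* in 5 of 6. Among the chow-fed Nnat+/+ mice, 1 mouse had 11.5 CPM in the PVN and 11.1 CPM in the ARC, and the other had 0.393 and 4.16 CPM. Whether the difference between nuclei varied with genotype was not tested.

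*Ntsr2* was higher in the ARC in 13 of 15 mice, with medians of 34.0 and 50.5 CPM, a log2 fold change of 0.59 ± 0.130 (SE) and an adjusted p of 0.00133 by edgeR. Of 8 astrocyte markers, 7 were called higher in the ARC in the same test, with a median log2 fold change of 0.588 over the 8. All 5 oligodendrocyte and all 4 microglial markers were also called higher and all 4 endothelial markers lower, and the part of cell composition in the *Ntsr2* difference was not tested. *Sort1* was higher in 11 of 15 mice, with medians of 55.8 and 61.5 CPM and a log2 fold change of 0.24 ± 0.106 (SE; adjusted p = 0.108 by edgeR). Its call was lost when every gene with a total count over 1 was fitted, at an adjusted p of 0.275.

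**Figure D4:**
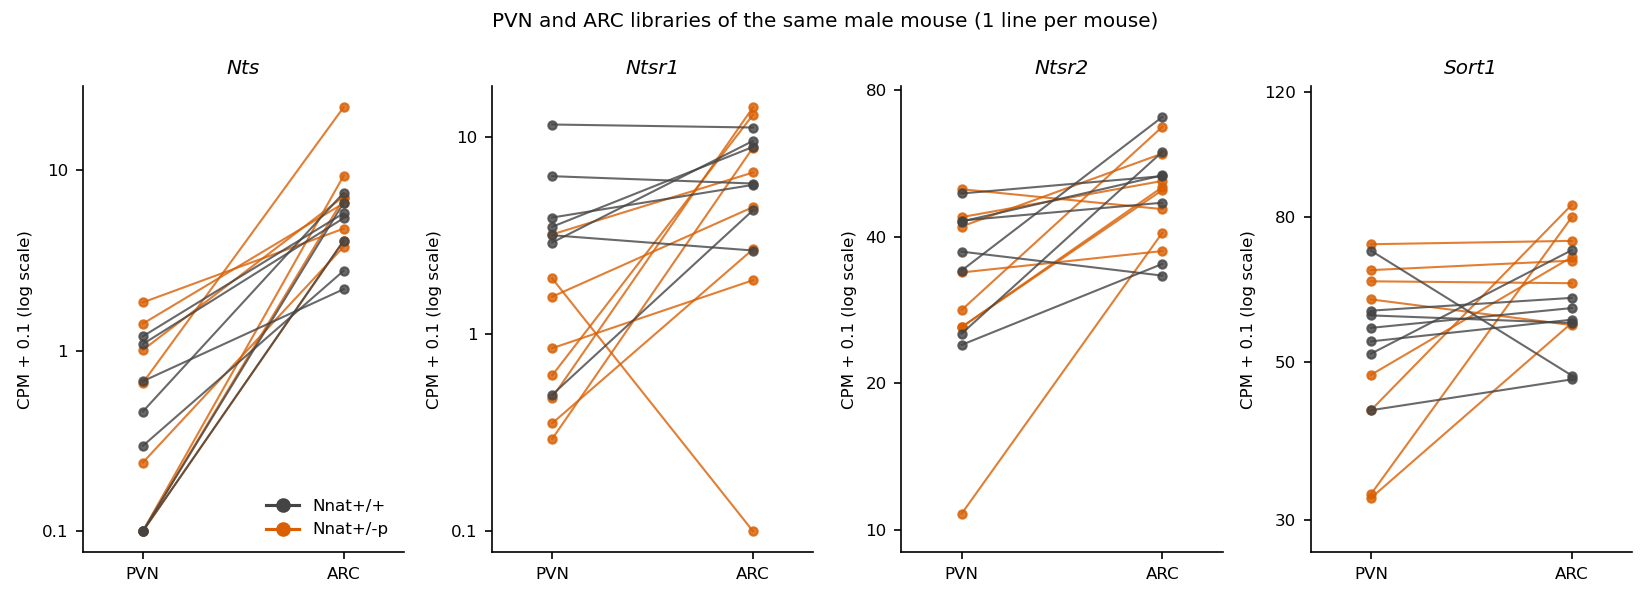
Level of each member (CPM + 0.1, log axis) in the PVN and the ARC of 15 male mice; each line joins the 2 libraries of 1 mouse, dark for Nnat+/+ and orange for Nnat+/-p. All 15 *Nts* lines rise to the ARC, while 11 of 15 *Ntsr1* lines, 13 of 15 *Ntsr2* lines and 11 of 15 *Sort1* lines do.

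Genes around the system were described from lists, in the same comparison of the nuclei. Of all genes tested there, 42.1% were called, 21.5% higher and 20.6% lower in the ARC. Calls in either direction were thus common and are not read as a result about the lists. The part of cell composition in them was not tested. Of 3 genes of precursor processing, *Pcsk1* and *Pcsk2*, the prohormone convertases, were called lower in the ARC (log2 fold change -0.86 ± 0.114 and -0.43 ± 0.109, SE), opposite in direction to *Nts*, and *Cpe*, which trims basic residues after the cut, was not called. Of 4 peptidases that cleave neurotensin, *Nln* (neurolysin) was called higher at 0.57 ± 0.144 and *Ace* lower at -0.79 ± 0.144, with *Thop1* and *Mme* not called. Of 8 genes of Gq signalling and arrestins, *Itpr1*, the calcium release channel of this pathway, was called higher at 1.32 ± 0.110, as were *Gnaq* at 0.33 ± 0.0771 and *Plcb4*, and *Arrb2* was called lower at -0.39 ± 0.146. Of 4 VPS10 relatives of *Sort1*, *Sorcs1* and *Sorl1* were called higher, at 0.38 ± 0.158 and 0.21 ± 0.102, and *Sorcs2* lower at -0.47 ± 0.102. None of 4 ligands and partners of *Sort1* (*Ngfr*, *Grn*, *Bdnf*, *Psap*) was called by edgeR, and the unadjusted p was under 0.05 for 0 of them. The median log2 fold change over all genes tested was 0.00192.

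The genotype, obesity and diet comparisons called no member. Over 15 comparisons, the edgeR quasi-likelihood test called 0 of 54 member tests at an adjusted p under 0.25, the unadjusted p was under 0.05 in 6 of them, and DESeq2 called 1. Over all genes the unadjusted p was under 0.05 for 174 of 17576 (genotype, HFD-fed PVN) to 1804 of 17576 (HFD against chow, PVN) in a comparison. The 54 tests share libraries, so the 6 are not independent and are not read as a result. The questions were whether loss of paternal *Nnat*, obesity among Nnat+/-p mice, HFD, or the sex of the mice went with other levels of the ligand or its receptors.

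In the chow-fed male PVN, 0 of 2 tested members was called for obese Nnat+/-p against Nnat+/+ mice (0.0256% of all genes tested), for non-obese Nnat+/-p against Nnat+/+ mice (0.0128%) and for obese against non-obese Nnat+/-p mice (0%). *Nts* and *Ntsr1* were under the count filter there. No member's groups were apart in these 3 comparisons, against 4.44%, 7.34% and 3.68% of the genes tested. *Ntsr2* had log2 fold changes of -0.60 (95% interval -1.37 to 0.18) in obese and -0.28 (-1.11 to 0.56) in non-obese against Nnat+/+ mice. Those of *Sort1* were -0.55 (-1.17 to 0.06) and -0.43 (-1.09 to 0.24). Without library 15 the *Ntsr2* values were -0.54 and -0.23 and the *Sort1* values were -0.25 and -0.13.

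The study placed *Ntsr1* in a module of correlated genes that went with *Nnat* genotype in the chow-fed male PVN. Genes entered its modules by a nominal likelihood ratio test across the subgroups, and it named *Ntsr1* as lower in mice lacking neuronatin. Here *Ntsr1* was compared in these same libraries by an exact permutation test, two-sided, of the mean of log2(CPM + 0.5). That is a different measure from the study's. The difference was -2.36 for obese against Nnat+/+ mice (exact p = 0.171) and -2.01 for non-obese against Nnat+/+ mice (exact p = 0.3, smallest possible 0.1). These p-values double the smaller tail over 35 and 20 possible splits. Neither could fall under 0.05 even with the groups fully apart. Leaving out library 15 made the differences -1.70 (exact p = 0.4) and -1.35 (exact p = 0.6). Without library 14 they were -3.63 and -3.28. Obese and non-obese Nnat+/-p mice differed by -0.35 (exact p = 0.457). The 6 markers of forebrain excitatory neurons summed to 35.0, 104 and 250 CPM in Nnat+/+ libraries 13, 14 and 15, against 21.0 to 64.8 CPM in obese and 12.6 to 42.0 CPM in non-obese Nnat+/-p libraries. Of the 5 tested, 1 (*Nrgn*) was called lower in both classes and 0 higher, with median log2 fold changes over the 5 of -0.0262 in obese and -1.36 in non-obese against Nnat+/+ mice. In the non-obese comparison 2 genes were called in all, and 1 with RLE size factors. The part of such neurons in the *Ntsr1* values was not tested, and library 13, with 11.5 CPM of *Ntsr1*, had the lowest of the 3 Nnat+/+ sums.

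In the chow-fed female PVN all 4 members were tested and 0 were called for obese Nnat+/-p against Nnat+/+ mice (0.0129%), non-obese Nnat+/-p against Nnat+/+ mice (0.00646%) and obese against non-obese Nnat+/-p mice (0%). *Ntsr1* had a log2 fold change of 3.42 (95% interval 0.04 to 6.79) in non-obese against Nnat+/+ mice, with an unadjusted edgeR p of 0.0475 and an adjusted p of 1, and it was 1.78 without library 10. The groups of 3.98% of the genes tested did not overlap in that comparison. Obese and non-obese groups did not overlap for 2 of 4 members, *Ntsr1* and *Sort1*, and for 8.23% of the genes tested, and obese and Nnat+/+ groups for 0 of 4, against 6.33%. For non-obese against Nnat+/+ mice, *Sort1* had a log2 fold change of 0.62 (-0.04 to 1.28) and *Nts* of -3.53 (-8.68 to 1.62).

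The sexes were compared by the difference between the female and the male effect of genotype in the chow-fed PVN. For non-obese mice 0 of 4 members were called by edgeR (0% of 18708 genes), with an unadjusted p under 0.05 for *Ntsr1* and *Sort1* and for 1073 of all 18708 genes. *Nts* and *Ntsr1*, under the count filter in the chow-fed male PVN alone, passed it here because both sexes were filtered together. The male Nnat+/-p side of the *Ntsr1* values stands on 1 to 5 counts per library. The *Ntsr1* effect was greater in females by 6.63 ± 2.19 (SE, log2; unadjusted p = 0.00478, adjusted p = 0.851 by edgeR), and DESeq2 gave 6.80 with an adjusted p of 0.137, which passes the threshold. For *Sort1* the difference was 1.04 ± 0.478 (SE, log2; adjusted p = 0.851 by edgeR). Without library 15 these were 6.20 and 0.75, and without library 10 they were 5.03 and 0.84. For obese mice 0 of 4 were called (0%), and the *Ntsr1* difference was 3.55 (95% interval -0.50 to 7.60), or 3.12 without library 15. Sex and sequencing pool cannot be told apart in these values.

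In the chow-fed ARC 0 of 4 members were called for obese Nnat+/-p against Nnat+/+ mice (0.0205%), non-obese Nnat+/-p against Nnat+/+ mice (0.0136%) and obese against non-obese Nnat+/-p mice (0.00682%). *Ntsr2* had log2 fold changes of -0.47 (95% interval -0.96 to 0.01) in obese against Nnat+/+ mice and of -0.41 (-0.81 to -0.01) in obese against non-obese mice, with an unadjusted edgeR p of 0.0455 in the latter and an adjusted p of 0.999. Of the 8 astrocyte markers, 1 (*Gfap*) was called higher and 0 lower in obese against Nnat+/+ ARC, with a median log2 fold change of -0.175, and their part in the *Ntsr2* values was not tested. No member's groups were apart for non-obese against Nnat+/+ mice (9.29% of the genes tested) or for obese against non-obese mice (2.52%). The *Nts* difference between obese and non-obese mice, -0.77 (-1.85 to 0.31), was -0.0879 without library 43.

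HFD was compared with chow in Nnat+/+ mice. In the PVN 0 of 4 members were called (1.43%) and 0 of 4 had groups apart (6.24%), with log2 fold changes of -0.35 for *Ntsr2*, -0.29 for *Sort1*, -0.96 for *Ntsr1* and 2.12 (95% interval -1.16 to 5.40) for *Nts*. Without libraries 15 and 24 these were -0.30, -0.00134, -0.66 and 2.34, and *Nts* was -0.34 without library 24 alone and 4.79 without library 15 alone. In the ARC 0 of 4 were called (1.16%). *Ntsr2* had -0.49 (-0.93 to -0.05; unadjusted p = 0.0306, adjusted p = 0.513 by edgeR) and *Sort1* had -0.40 (-0.82 to 0.03). The chow-fed ARC has only 2 Nnat+/+ libraries. In this comparison *Pcsk1* was called higher on HFD (0.76 ± 0.220, SE; adjusted p = 0.225 by edgeR), the 1 call among 345 tests of the genes on the 5 pathway lists outside the nuclei. Beside it, the oligodendrocyte markers *Mbp* and *Mobp* were called lower (-1.09 ± 0.241 and -1.25 ± 0.268, SE, log2), and their part was not tested.

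Among HFD-fed mice the genotypes were compared in each nucleus. In the PVN 0 of 4 members were called (0.00569%) and 0 of 4 had groups apart (1.55%), and *Ntsr1* had a log2 fold change of -0.59 (95% interval -2.22 to 1.04) and *Sort1* of 0.11 (-0.36 to 0.58), which were -0.42 and 0.13 without library 24. *Nts* had -2.79 (-6.19 to 0.61), and -0.32 without library 24. In the ARC 0 of 4 were called (0.0127%). *Sort1* had 0.65 (0.31 to 0.98), or 1.57-fold, with an unadjusted p of 0.000451 and an adjusted p of 0.920 by edgeR. It lay between 0.49 and 0.72 when each library was left out in turn, and DESeq2 gave 0.64 with an adjusted p of 0.499, so the direction was kept in these fits while the call was not made. *Ntsr2* had 0.21 (-0.14 to 0.57) and *Ntsr1* -0.17 (-1.49 to 1.16).

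**Figure D5:**
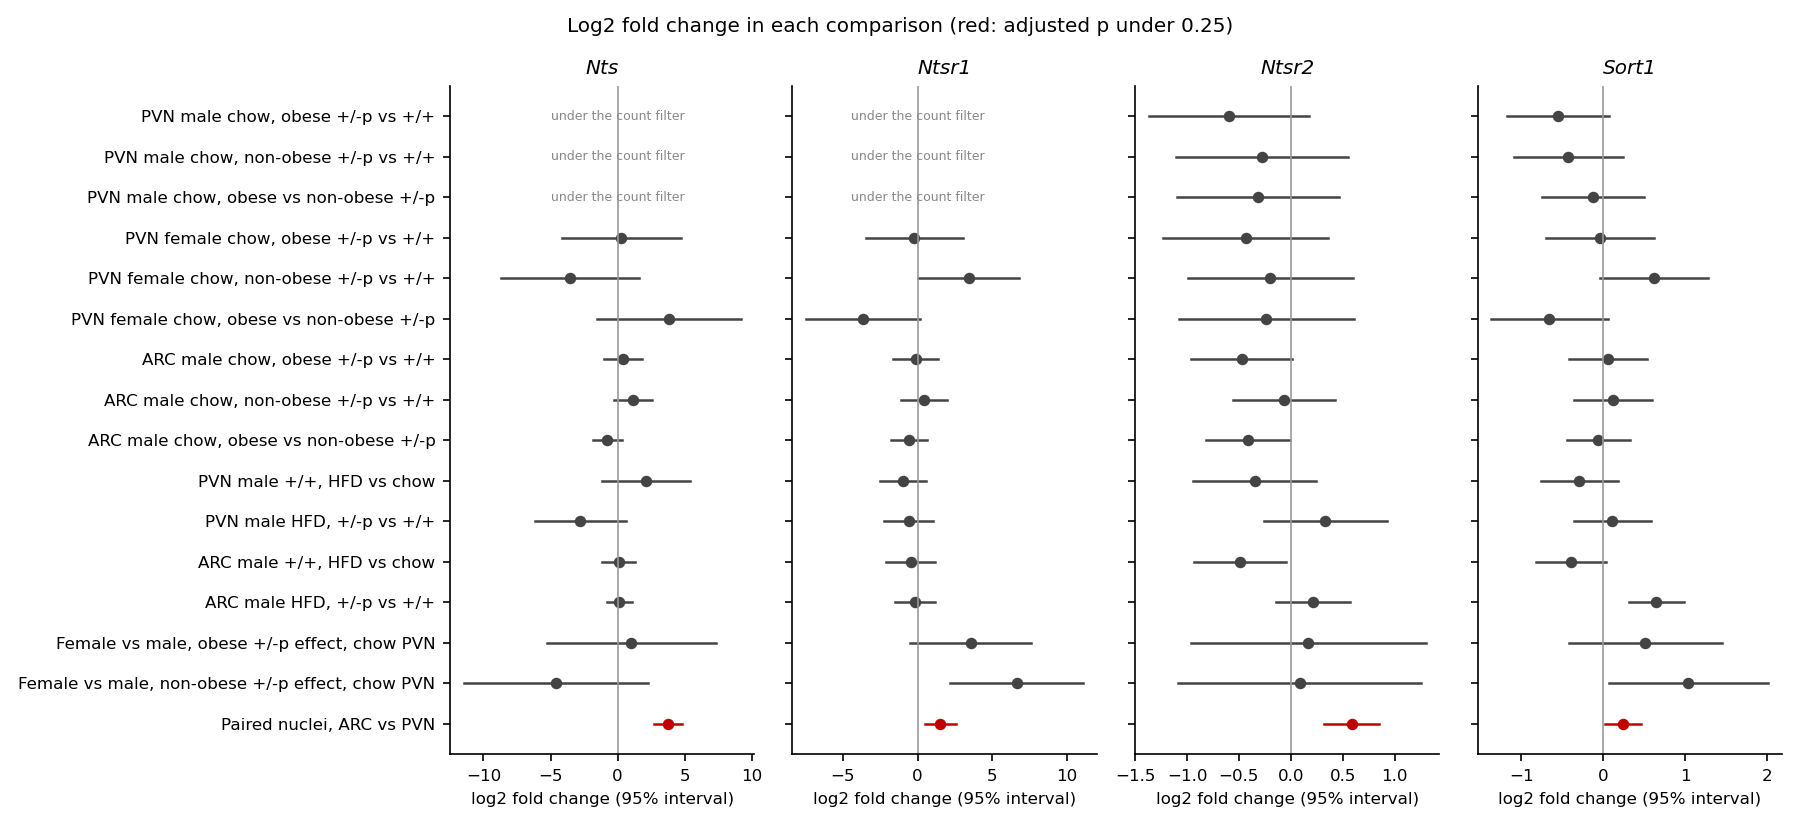
Log2 fold change of each member in the 16 comparisons, with 95% intervals as lines; red marks an adjusted p under 0.25 by edgeR, and the horizontal scale differs between panels. The 4 red points are all in the comparison of the ARC with the PVN, at 3.73, 1.53, 0.59 and 0.24, and intervals of *Nts* and *Ntsr1* in the PVN are several log2 units wide.

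Genes that varied most like each member between mice were listed over the 19 male PVN libraries, by the correlation of log2 CPM with group means removed. The libraries share depth and dissection, and the highest correlations over all genes are high by selection, so these are descriptions only. For *Ntsr2* the 5 genes were *Nfe2l2*, *Mrps9*, *Syk*, *Mlc1* and *Lhfpl3*, at 0.866 to 0.897. *Mlc1*, a membrane protein gene of astrocytes, had 0.871 there, 0.558 in the 20 ARC libraries and 0.419 in the 10 female PVN libraries, and among the others only *Syk* was above 0 in both. The median correlation of *Ntsr2* with the tested astrocyte markers was 0.304, 0.376 and -0.218 in the 3 sets, and that with the neuron markers 0.131, 0.391 and 0.227. The 5 genes of *Sort1* were *Marcks* (0.935), *Sept3*, *Gusb*, *Wasf3* and *Rasgef1a*, and *Marcks* had -0.211 in the ARC. Those of *Ntsr1* were *Shroom3* (0.854), *Susd6*, *Rfxank*, *Tedc2* and *1700029J07Rik*, and only *Shroom3* was above 0 in both other sets, at 0.267 and 0.441. *Nts* had under 10 counts in 89.5% of the male PVN libraries and was not ranked.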

How the data were processed

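RNA of the PVN and ARC, captured by laser, was made into SMARTer total RNA libraries of low input by the authors, sequenced as single-end reads and, per the submitters' processing notes, aligned with STAR 2.5.0a to GRCm38. The deposited values are the authors' counts of reads per gene, as whole numbers without normalization, in 3 tables. The counting tool and strand setting are not given in the sources used here. Library 32 was left out because its label and its table name different nuclei, and libraries 5, 7 and 35 because their totals are 2302 to 812815.

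Genes were kept by filterByExpr (minimum count 10), scaled by TMM and tested with edgeR 4.0.16 (quasi-likelihood, Benjamini-Hochberg, called at an adjusted p under 0.25, the study's threshold). Chow-fed subgroups made 1 fit per nucleus and sex, and HFD comparisons used all male groups of the nucleus. Intervals use the t distribution of the quasi-likelihood fit. *Ntsr1*, where filtered, was tested by exact permutation in SciPy. Alternatives were DESeq2 1.42.0, RLE factors, no filter, each library (between nuclei, each mouse) left out, and the summed libraries 39 and 40, which share a weight. The fits were tested on simulated data. Members, lists and tests were chosen with earlier results of these data known; named genes are the members, *Nnat*, called list genes and the 5 genes most correlated with each member. *Gfap*, *Nrgn* and the oligodendrocyte genes are called genes of the marker lists, named after their values were seen. Counts carry no molecular identifiers, so floors cover counting error only, and p-values measure the spread between libraries, of which 39 and 40 may be 1 mouse.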

Additional observations from a re-analysis of the deposited data

Results flagged for a closer look

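In 3 groups the highest *Nts* library stood apart from the rest by Dixon's test at the 95% level. They were obese chow-fed male PVN library 16 with 1.75 CPM, on 9 counts, HFD-fed Nnat+/+ PVN library 24 with 17.4 CPM and non-obese chow-fed ARC library 43 with 22.2 CPM. In the first of these the other 3 libraries had no *Nts* count, so any count would have stood apart and the test says nothing there. Chance marks about 1 in 20 groups, and 28 sets of values were tested over the 4 members. Library 32, labelled as HFD-fed Nnat+/-p ARC but counted in the table of the male PVN and used in no comparison, had 77.4 CPM of *Sort1* before TMM scaling, within the range of the other 19 male libraries of that table on the same scale, whose highest were 90.2 CPM in library 15 and 84.1 CPM in library 17. It is above the HFD-fed libraries of both genotypes in that table, of which the highest had 68.7 CPM in Nnat+/+ and 69.7 CPM in Nnat+/-p mice.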

How the results depend on the processing

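Nothing was called for any member in the 15 comparisons of genotype, obesity, diet and sex under any alternative, except that DESeq2 called 1 of 4 members, *Ntsr1*, in the non-obese sex comparison (0 by edgeR). *Ntsr1* is under the count filter in the chow-fed male PVN alone. Leaving out each library kept the count at 0 to 0 in those 15 comparisons, and leaving out each mouse kept it at 4 to 4 between nuclei. Calls over all genes moved more: DESeq2 made 129 and 158 in the non-obese and obese sex comparisons (0 and 0 by edgeR), 47, 82 and 52 in the female PVN (1, 2 and 0), 19 for obese against Nnat+/+ male PVN (4), and 478 and 345 for HFD in the PVN and ARC (251 and 182). With every gene fitted, 8 to 1134 genes were called outside the nuclei, apart from 6 for obese against non-obese male PVN. Without libraries 15 and 24, HFD in the PVN gave 974 calls, and without libraries with conflicting weights, HFD in the ARC gave 44.

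No paired analysis was possible for the group comparisons because the replicate numbers are never shared between groups. Between nuclei the block was the mouse, matched by weight; without the mouse pairing, over all male libraries, the log2 fold changes were 2.57 (*Nts*), 1.67 (*Ntsr1*), 0.50 (*Ntsr2*) and 0.26 (*Sort1*), all called. With the block and each mouse (both its libraries) left out in turn they ranged from 3.58 to 3.95, 1.32 to 1.75, 0.51 to 0.64 and 0.17 to 0.30.

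Some uncalled log2 fold changes changed sign, and the cause was not tested. With libraries 39 and 40 summed, *Sort1* in obese against non-obese ARC was 0.0187. Without libraries whose weights stand under opposite genotypes in the 2 nuclei, *Nts* was -0.31 for HFD in the PVN and -0.0199 for HFD-fed Nnat+/-p against Nnat+/+ ARC. Without libraries 15 and 24, *Nts* in the obese sex comparison was -1.75.

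Leaving out each library in turn gave ranges that cross 0 for these. For *Nts* they were -0.40 to 1.65 (obese against Nnat+/+ female PVN), -0.10 to 1.19 (obese against Nnat+/+ ARC), -0.34 to 4.79 (HFD, PVN), -0.42 to 0.85 (HFD, ARC), -0.043 to 0.27 (genotype, HFD-fed ARC) and -1.75 to 6.59 (obese, sex). For *Ntsr1* they were -1.49 to 0.57 (obese, female PVN), -0.66 to 0.78 and -0.11 to 1.33 (obese and non-obese against Nnat+/+ ARC), -0.99 to 0.43 (HFD, ARC) and -0.48 to 0.23 (genotype, HFD-fed ARC). For *Ntsr2* they were -0.58 to 0.093 (obese against non-obese male PVN), -0.24 to 0.14 (non-obese ARC), -0.11 to 0.45 (obese, sex) and -0.10 to 0.48 (non-obese, sex). For *Sort1* they were -0.42 to 0.0375 (obese against non-obese male PVN), -0.20 to 0.0641 (obese, female PVN), -0.0595 to 0.19 and -0.00793 to 0.24 (obese and non-obese ARC), -0.18 to 0.0457 (obese against non-obese ARC) and -0.43 to 0.0253 (HFD, PVN).

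Depth limited *Nts* and *Ntsr1* in the PVN, where 3 counts correspond to 0.0716 to 1.09 CPM in a library. With every gene fitted, *Ntsr1* in the chow-fed male PVN had log2 fold changes of -3.73 (adjusted p = 0.737 by edgeR) for obese and -3.24 (adjusted p = 0.801 by edgeR) for non-obese against Nnat+/+ mice.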
